A study of Mus musculus with 9 samples.

Results

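The genes described here encode the MHC class II antigen presentation machinery of the mouse: H2-Aa, H2-Ab1, H2-Eb1, Cd74, H2-DMa, H2-DMb1, H2-Oa and Ciita. They were taken from a list by symbol, and all 8 had a row among the 47069 genes counted in bulk RNA sequencing of 9 tumour libraries. The libraries were 3 distal metastases, 3 proximal metastases and 3 primary prostate tumours. All mice carried the same genotype, which includes Ctnnb1pc(ex3)delta/+, on the C57BL/6 strain at about 9 to 10 months of age: 1 Ctnnb1 allele lacks exon 3, a change known to stabilise beta-catenin. The promoter that drives the deletion is not given in the sources used here. Proximal metastases grew in the epididymal fat. Distal metastases are given as diaphragm under tissue and as lung in the protocol text. The protocol calls the 3 samples of each tissue matched, and the number of mice is given as 3. Which libraries share a mouse is not given, and no group without the engineered alleles was used here.

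MHC class II molecules are pairs of an alpha and a beta chain that present peptides from engulfed proteins to CD4 T cells. The new chains are held in the endoplasmic reticulum by the invariant chain (Cd74), and in late endosomes the H2-DM protein exchanges the remaining invariant chain fragment for a peptide, while H2-O, found mainly in B cells and some dendritic cells, restrains H2-DM. Dendritic cells, macrophages and B cells express these genes constitutively, and many other cells, epithelial cells included, can do so after exposure to interferon gamma. Ciita is the coactivator that sets the level of the others: it binds no DNA itself and docks on RFX, CREB and NF-Y bound to the X and Y boxes shared by class II promoters.

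The promoters are shown because the genes they belong to moved together across the libraries. RefSeq promoter sequences (GRCm38.p6, 250 bases before to 50 after a start) were matched for 5 of the 8 genes. They were searched on both strands for ATTGG, the core of the Y box, and then, after the sequences had been read, for GNAAC starting 25 to 45 bases upstream of it on the same strand, a pattern of the X box. H2-Aa, H2-Eb1, H2-DMb1 and H2-Oa held both. Their 100-base stretches follow 5′ to 3′, with GNAAC and ATTGG in capitals.
H2-Aa (chr17:34287842-34287941, minus strand): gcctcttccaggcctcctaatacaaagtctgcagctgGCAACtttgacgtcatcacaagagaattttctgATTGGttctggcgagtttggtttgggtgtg
H2-Eb1 (chr17:34305738-34305837, plus strand): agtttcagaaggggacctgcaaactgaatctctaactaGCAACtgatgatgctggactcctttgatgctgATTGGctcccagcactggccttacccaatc
H2-DMb1 (chr17:34153060-34153159, plus strand): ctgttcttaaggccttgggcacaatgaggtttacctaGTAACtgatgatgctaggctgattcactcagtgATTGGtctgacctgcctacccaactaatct
H2-Oa (chr17:34092266-34092365, plus strand): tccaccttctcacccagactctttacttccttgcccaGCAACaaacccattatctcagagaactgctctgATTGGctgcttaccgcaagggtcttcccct

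ATTGG lay 48 bases before the start of H2-Aa, 59 before that of H2-Eb1, 61 before that of H2-DMb1 and 43 before that of H2-Oa. GNAAC began 32 bases upstream of ATTGG in H2-Eb1 and 33 bases upstream in the other 3 genes. In each of the 4 promoters the bases TG stood directly before ATTGG. Of all 32851 promoters in the table, 37.4% held ATTGG on either strand, 7.82% held TGATTGG and 3.41% held the spaced pair. H2-DMa has 2 promoter entries, 1 without ATTGG and 1 with it 198 bases before the start, and neither held the spaced pair.

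Libraries held 28334730 to 40408723 counts, and levels are given as CPM, the usual counts-per-library-size unit, after TMM scaling of the library totals. Several libraries stood apart in composition, and results that rest on them are given without them where a call changed. Primary 2 had 4.15% of its counts on the rRNA-derived genes CT010467.1 and Lars2 together and 0.131% on mitochondrially encoded genes, against at most 0.420% and at least 0.868% in the other libraries. Seminal vesicle secretory genes summed to 7492 CPM in primary 3 and to at most 25.3 CPM elsewhere, and genes of prostate secretion summed to 13.2, 411 and 559 CPM in primary 1, 2 and 3. Skeletal muscle genes, as a diaphragm sample would hold, summed to 6.74, 573.6 and 789.7 CPM in distal 1, 2 and 3. Epithelial genes (Epcam, Krt8 and others) summed to 10037 CPM in primary 2, to 5192 CPM in primary 3 and to 1679 to 2540 CPM elsewhere. The surfactant gene Sftpa1, which marks lung, had no count in any library, and Sftpb and Sftpc had 2 and 6 counts in all 9 together. Of the other genes on the lung list, Sftpd reached 14.9 CPM in primary 2 and 9.73 CPM in primary 3, with no more than 0.102 CPM elsewhere, Scgb1a1 reached 9.63 CPM in primary 3, with no more than 0.134 CPM elsewhere, and Ager stood at 1.13 to 2.75 CPM in all libraries. The adipocyte list summed to 14.96, 18.6 and 186 CPM in distal 1, 2 and 3, to 50.8, 194 and 77.9 CPM in proximal 1, 2 and 3 and to 136, 8.38 and 37.3 CPM in primary 1, 2 and 3, so the groups overlapped.

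The distal metastases held the lowest levels of class II transcripts and the primary tumours the highest, and the distal libraries lay below every primary library for all 8 genes. In bulk tissue, fewer cells of a type and less RNA per cell cannot be told apart. H2-Ab1, the beta chain of I-A (chromosome 17, 34257689 to 34269419 on GRCm38), stood at 11.9, 28.9 and 22.5 CPM in distal 1, 2 and 3, at 30.1, 57.2 and 19.5 CPM in proximal 1, 2 and 3, and at 55.2, 134 and 123 CPM in primary 1, 2 and 3. Primary 2 and 3 were the highest and distal 1 the lowest, and only proximal 2 overlapped the primary range. On the log2 scale distal minus primary was -2.30 (adjusted p = 0.129 by edgeR, SE 0.52).

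H2-Aa, the alpha chain of I-A (chromosome 17, 34282744 to 34287823), stood at 10.9, 34.1 and 23.6 CPM in distal samples, at 32.2, 62.5 and 19.0 CPM in the proximal ones and at 56.5, 54.8 and 130 CPM in the primary ones. Here primary 3 stood alone at the top, and primary 2 was the lowest primary library. H2-Eb1, the beta chain of I-E (chromosome 17, 34305867 to 34316674), stood at 10.6, 33.8 and 21.8 CPM in distal samples, 30.4, 56.6 and 19.8 CPM in the proximal and 59.6, 80.5 and 127.5 CPM in the primary libraries. It did not overlap between either metastatic site and the primary tumours. The distal over primary differences on the log2 scale were -1.82 (adjusted p = 0.204 by edgeR, SE 0.59) for H2-Aa and -2.01 (adjusted p = 0.155 by edgeR, SE 0.53) for H2-Eb1.

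Cd74, the invariant chain (chromosome 18, 60803848 to 60812652), was the most abundant of the 8. It stood at 34.3, 99.0 and 73.8 CPM in distal samples, 93.3, 191 and 62.1 CPM in the proximal and 173, 392 and 409 CPM in the primary libraries. Its order over the libraries was close to that of H2-Ab1, with proximal 2 inside the primary range and distal 1 lowest. On the log2 scale distal minus primary was -2.23 (adjusted p = 0.145 by edgeR, SE 0.56).

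The peptide exchange factor H2-DM followed at lower levels. H2-DMa, its alpha chain (chromosome 17, 34119541 to 34139101), stood at 1.998, 3.35 and 2.80 CPM in distal samples, 3.65, 7.37 and 2.57 CPM in the proximal and 5.79, 6.90 and 12.2 CPM in the primary libraries. H2-DMb1, a beta chain (chromosome 17, 34153072 to 34160230), stood at 2.57, 2.38 and 3.70 CPM in distal samples, 2.92, 4.13 and 1.86 CPM in the proximal and 4.34, 7.21 and 7.19 CPM in the primary libraries. For H2-DMb1 all 6 metastases lay below all 3 primary tumours, and for H2-DMa proximal 2 reached the primary range. The distal over primary differences on the log2 scale were -1.61 (adjusted p = 0.183 by edgeR, SE 0.48) for H2-DMa and -1.12 (adjusted p = 0.222 by edgeR, SE 0.39) for H2-DMb1. H2-DMa overlaps Brd2 on the other strand, which had 8411 to 12949 counts a library, and reads shared by H2-DMb1 and its paralog H2-DMb2 may have been split, so both sets of counts are uncertain.

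H2-Oa, the alpha chain of H2-O (chromosome 17, 34092340 to 34095234), was scarce. It had 3, 18 and 9 counts in the distal, 4, 73 and 7 counts in the proximal and 41, 18 and 45 counts in the primary libraries. Proximal 2 had the highest level of all, 1.86 CPM, while the other 2 proximal libraries lay among the distal ones. On the log2 scale distal minus primary was -2.04 (adjusted p = 0.340 by edgeR, SE 1.09), with an SE that reflects the low counts.

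Ciita (chromosome 16, 10480059 to 10528418) stood at 0.400, 1.26 and 0.932 CPM in distal samples, 1.56, 4.51 and 0.709 CPM in the proximal and 4.61, 3.47 and 6.44 CPM in the primary libraries. Again proximal 2 was the only metastasis within the primary range. Its fitted difference between distal and primary was the largest of the 8 genes, at -2.48 on the log2 scale (adjusted p = 0.178 by edgeR, SE 0.73). Ciita overlaps Dexi on the other strand, with 753 to 1082 counts a library.

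**Figure D1:**
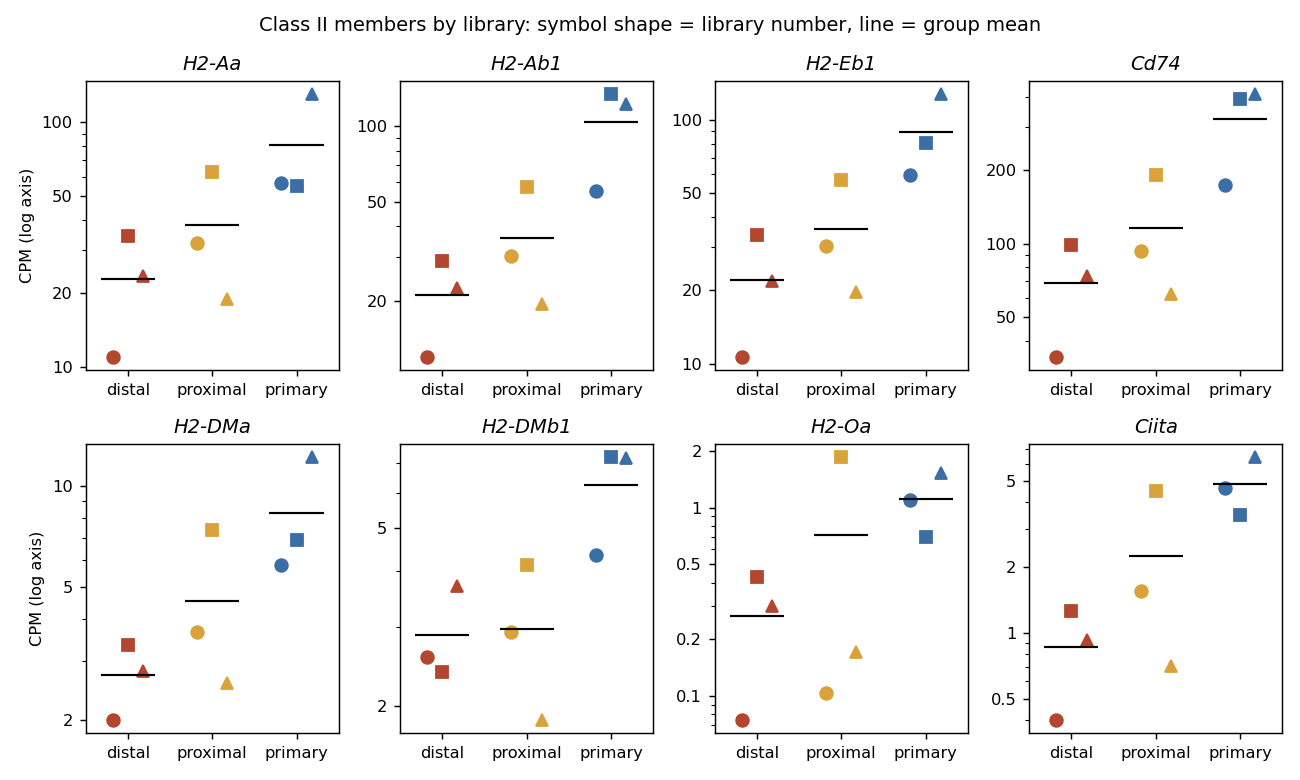
CPM (log axis) of the 8 class II genes in distal, proximal and primary libraries; each symbol is 1 library, its shape gives the library number and the line is the group mean. All distal libraries lie below all primary ones in each panel, and proximal 2 (square) is the highest proximal library for every gene.

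Across the 8 genes, distal metastases differed from primary tumours in the same direction without any gene passing the threshold of an adjusted p below 0.05. None of the 8 was called by edgeR's quasi-likelihood test, in which 0.0879% of the 18204 tested genes were called lower. At an unadjusted p below 0.05, 7 of the 8 were lower, H2-Oa being the exception, against 13.5% of all tested genes. Groups did not overlap for 8 of 8, with every distal library lower, which held for 10.4% of all tested genes. All 8 fold changes were below 0, as were 52.0% of those of all tested genes. The median log2 fold change was -2.03 over the 8 genes and -0.03 over all tested genes. The 8 genes vary together, so these counts are not 8 separate observations.

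The call depended on the tool and on primary 1. DESeq2 called 7 of the 8 lower, where it called 6.89% of all genes lower, and limma-voom with sample quality weights called 5 (10.7% of all genes), while limma-voom without weights called none (0.00549% of all genes). Without primary 1, edgeR called H2-Ab1, H2-Eb1, H2-DMa, H2-DMb1 and Cd74 lower, where 14.1% of all genes were called lower. Those calls rest on primary 2 and 3 alone as the reference. Between primary 1 and the metastases, chi-square per gene (near 1 for sampling noise alone) was 42.8 to 73.0. It was 740 between primary 1 and primary 2 and 302 between primary 1 and primary 3.

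Proximal metastases stood between the other groups, with a wide spread. None of the 8 genes was called against primary tumours by edgeR (0.0494% of all genes were called lower). At an unadjusted p below 0.05, H2-Ab1, H2-Eb1, H2-DMb1 and Cd74 were lower, 4 of 8 against 14.3% of all genes. Groups did not overlap for 2 of 8, H2-Eb1 and H2-DMb1, against 10.7% of all genes. All 8 fold changes were again below 0, against 52.8% of all genes. The largest fitted differences were those of H2-Ab1, at -1.55 on the log2 scale (adjusted p = 0.203 by edgeR, SE 0.51), and Cd74, at -1.49 (adjusted p = 0.231 by edgeR, SE 0.55). The median over the 8 genes was -1.09, and -0.05 over all tested genes. DESeq2 called H2-Ab1 alone (7.65% of all genes called lower), both limma-voom fits called none (0.00549% without and 11.7% with weights), and edgeR without primary 1 called H2-Ab1, H2-DMb1 and Cd74 (14.9% of all genes).

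Proximal 2 set much of that spread. Summed over the 8 genes, the proximal libraries held 194, 385 and 126 CPM, and the distal and primary sums were 72.9, 203 and 149 CPM and 361, 680 and 817 CPM. Without proximal 2, the log2 fold change of proximal over primary moved to -2.05 for H2-Ab1 and -2.96 for H2-Oa, which stood at -0.64 with it. The median SD of log2(CPM + 0.5) within a group was 0.57 in distal, 0.79 in proximal and 0.54 in primary libraries for the 8 genes, against 0.14, 0.14 and 0.49 for all tested genes. 

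Distal and proximal metastases were not separated by these genes. None of the 8 was called lower or higher (0% of all genes were called). None had an unadjusted p below 0.05, against 2.06% of all genes in either direction and 0.269% lower. No gene of the 8 had every distal library below every proximal one, against 3.6% of all genes. DESeq2 and both limma-voom fits called none of the 8 either (DESeq2 called 0.0231% of all genes lower). All 8 were below 0, against 52.8% of all genes. The 8 log2 fold changes of distal over proximal lay between -0.04 for H2-DMb1 and -1.40 for H2-Oa, with a median of -0.74 against -0.01 for all tested genes. Those of H2-DMb1 and H2-Oa turned positive without proximal 2, at 0.27 and 0.93. The comparisons with primary tumours share the primary libraries, and the comparison of the sites shares libraries with both.

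**Figure D2:**
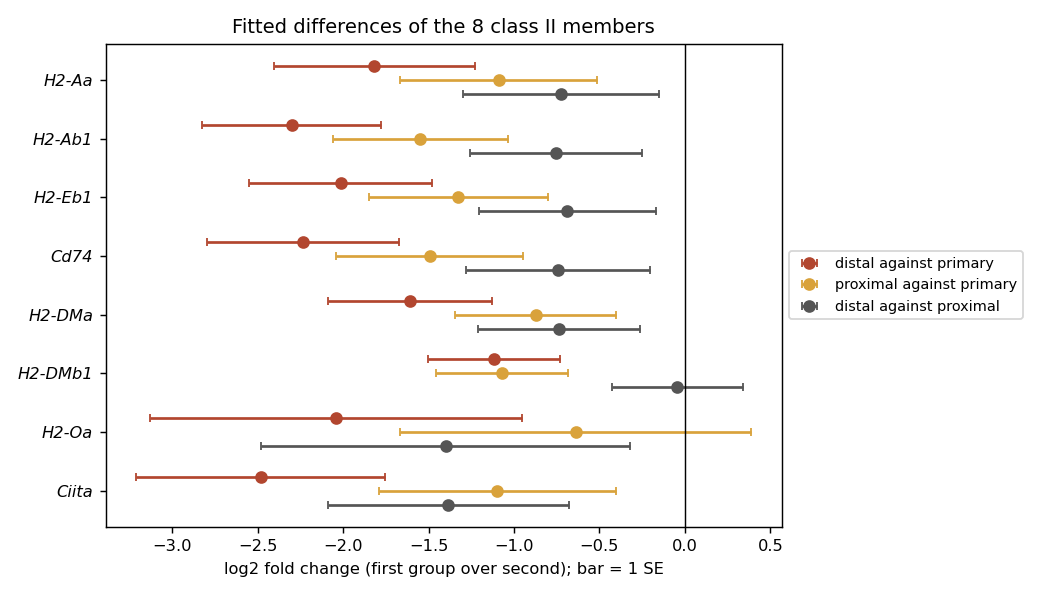
Log2 fold change (first group over second) of each class II gene in the 3 comparisons, with bars of 1 SE from the edgeR fit. Points for distal against primary run from -1.12 for H2-DMb1 to -2.48 for Ciita, and for H2-Oa and Ciita the distal against proximal points (-1.40 and -1.38) lie farther from 0 than those for proximal against primary (-0.64 and -1.10).

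Per kilobase of annotated exon, the genes kept 1 order of mean levels in all 3 groups. In distal, proximal and primary libraries the mean was 41.1, 68.8 and 194 CPM per kilobase for Cd74, 11.4, 18.3 and 45.9 for H2-Eb1, 8.23, 13.9 and 40.6 for H2-Ab1 and 6.02, 9.97 and 21.2 for H2-Aa. H2-DMb1 followed with 1.71, 1.77 and 3.72, H2-DMa with 0.788, 1.31 and 2.41, H2-Oa with 0.190, 0.506 and 0.788 and Ciita with 0.0906, 0.237 and 0.508 CPM per kilobase. Of the neighbours in this order, H2-Eb1 and H2-Ab1 changed places in 1 of 9 libraries, primary 2, and H2-Oa and Ciita in 1, proximal 1. The other 5 pairs of neighbours kept their order in 9 of 9. The lengths pool the exons of all annotated isoforms, which differ most from the main transcript for genes with many of them.

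Ratios between the chains were steady, except in primary 2. Cd74 stood at 4.39 to 5.23 times H2-Ab1 per kilobase in all 9 libraries. H2-Aa stood at 0.620 to 0.797 of H2-Ab1 in 8 libraries and at 0.276 in primary 2. H2-Eb1 stood at 1.18 to 1.54 of H2-Ab1 in the same 8 libraries and at 0.791 in primary 2. H2-DMa stood at 0.0740 to 0.125 of H2-Ab1 in the 8 and at 0.0382 in primary 2. H2-Ab1 and Cd74 were thus high in primary 2 relative to H2-Aa, H2-Eb1 and H2-DMa. That library is the one with the high CT010467.1 and Lars2 share given above, whose part in these ratios was not tested.

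H2-Oa was not in a fixed proportion to Cd74, and it peaked in the same library as the B cell markers. Per 100 counts of Cd74 there were 0.219, 0.433 and 0.406 counts of H2-Oa in the distal, 0.112, 0.974 and 0.275 in the proximal and 0.634, 0.179 and 0.373 in the primary libraries. The highest values were those of proximal 2 and primary 1. The B cell list of 8 genes summed to 2.52, 7.28 and 9.16 CPM in distal samples, 3.26, 51.9 and 1.76 CPM in the proximal and 23.8, 4.64 and 29.8 CPM in the primary libraries. Cd79a, a chain of the B cell receptor complex, reached 11.4 CPM in proximal 2 and 0.342 to 6.38 CPM elsewhere.

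Over the 9 libraries, log2(CPM + 1) of H2-Oa and of the B cell sum had r = 0.93, against 0.57 for H2-Ab1, 0.60 for Cd74 and 0.81 for Ciita with the same sum. With the macrophage sum, r was 0.61 for H2-Oa, 0.77 for H2-Ab1, 0.76 for Cd74 and 0.93 for H2-DMb1. H2-Oa had r = 0.93 with the T cell sum and 0.89 with the dendritic cell sum as well. H2-Ab1 had 0.87 and 0.85 with them, Cd74 had 0.88 and 0.86, and Ciita had 0.91 and 0.96, both above its value with the B cell sum. Between pairs of the 8 genes, r lay between 0.68 for H2-DMb1 with H2-Oa and 0.997 for H2-Ab1 with Cd74. All these values share the same libraries and their scaling, and are descriptions with no test.

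Of the 4 other class II chain genes, H2-Ob, H2-DMb2 and H2-Eb2 also peaked in proximal 2, while H2-Ea was highest in proximal 1. H2-Ob, the beta chain of H2-O, stood at 0.225, 0.999 and 1.17 CPM in distal samples, 0.522, 5.07 and 0.391 CPM in the proximal and 3.67, 1.40 and 2.48 CPM in the primary libraries. H2-DMb2, the other H2-DM beta chain, stood at 0.225, 0.642 and 0.633 CPM in distal samples, 0.417, 3.21 and 0.391 CPM in the proximal and 2.39, 0.819 and 2.64 CPM in the primary libraries. H2-Eb2, a paralog of H2-Eb1, reached its highest level, 1.73 CPM, in proximal 2 and had no count in proximal 3. None of H2-Ob, H2-DMb2 and H2-Eb2 was called in any comparison (edgeR adjusted p of 0.308 to 0.515 for distal against primary).

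**Figure D3:**
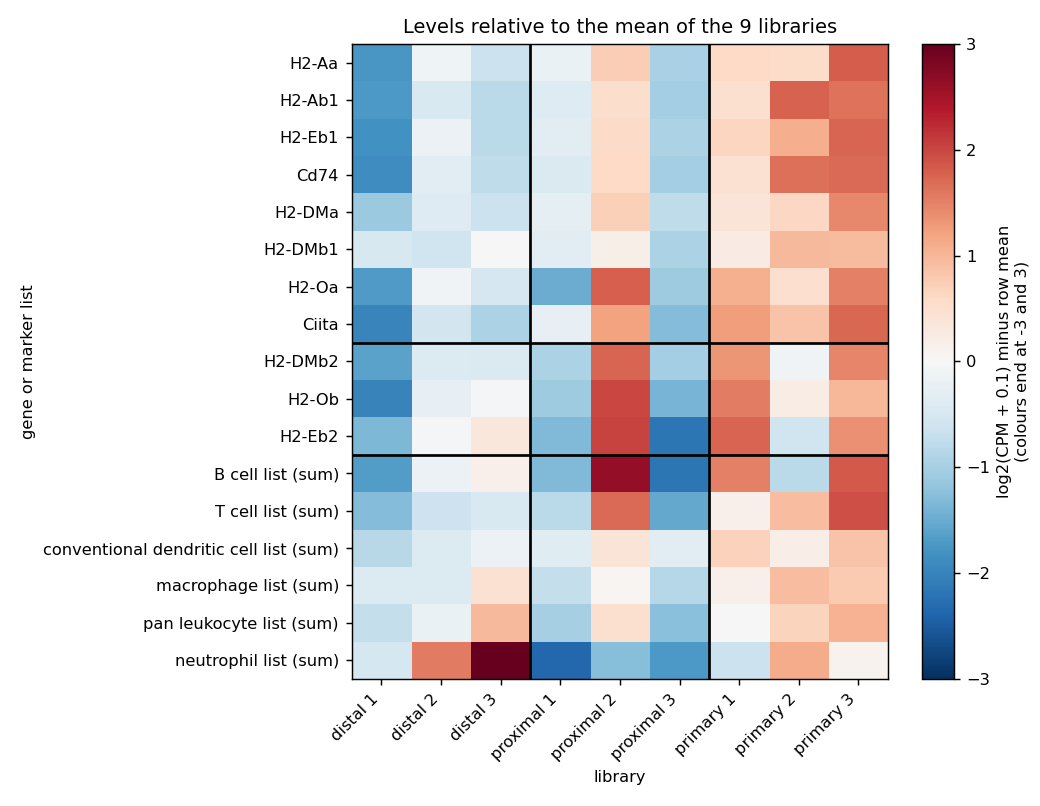
Log2(CPM + 0.1) minus the row mean over the 9 libraries, by library, for the 8 class II genes, 3 further class II chain genes and the sums of 6 marker lists; colours end at -3 and 3. H2-Oa, H2-DMb2, H2-Ob and H2-Eb2 share the peak of the B cell list in proximal 2, and the neutrophil list peaks in distal 3, where class II genes are low.

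Markers of the cells that carry class II moved with these results in some comparisons and not in others, and their part in them was not tested. The 10 macrophage genes summed to 347, 347 and 628 CPM in distal 1, 2 and 3, to 278, 479 and 253 CPM in the proximal libraries and to 514, 878 and 796 CPM in the primary ones. All 10 had negative log2 fold changes against primary at both sites and each was detected in every library. For distal over proximal, 8 of the 10 were positive, with a median of 0.25, where all 8 class II genes were negative. For distal over primary, the median log2 fold change of the 10 was -0.81. Lyz2, the most abundant, had -0.14 (adjusted p = 0.856 by edgeR, SE 0.44). C1qa, a complement gene of tissue macrophages, had the largest difference of the 10, at -1.45 (adjusted p = 0.185 by edgeR, SE 0.44). The 10 conventional dendritic cell genes summed to 11.5 to 18.2 CPM in distal samples, 16.1 to 26.9 CPM in the proximal and 23.7 to 37.7 CPM in the primary libraries, with Cd209a at 0 in distal 1 and primary 2. Of these 10, 9 were negative for distal and 7 for proximal over primary. The most abundant, Zbtb46, was positive at both sites (log2 fold change 0.36 and 0.54, SE 0.38 each). The 8 T cell genes summed to 1.95 to 3.60 CPM in distal samples, 1.64 to 16.4 CPM in the proximal and 5.497 to 19.3 CPM in the primary libraries. Of the 8 B cell genes, all were negative for distal over primary, and 5 were positive for proximal over primary (median 0.05). No member of these lists was called in any comparison.

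Class II levels were also set against general leukocyte transcripts. The sum of the 8 genes was 1.29, 2.52 and 0.820 times the sum of Ptprc, Coro1a, Laptm5 and Cd53 in distal 1, 2 and 3. The ratio was 4.17, 2.98 and 3.22 in the proximal and 3.87, 4.62 and 4.26 in the primary libraries. All distal ratios lay below all others, while proximal and primary ratios overlapped. In distal 3 the leukocyte sum was 182 CPM, near the highest value of 192 CPM in primary 3, and the neutrophil list stood at 568 CPM, against 8.19 to 123 CPM in the other 8 libraries. The part of leukocyte and neutrophil content in these ratios was not tested. Relative to the macrophage sum, the ratio was 0.210, 0.586 and 0.238 in the distal, 0.698, 0.805 and 0.497 in the proximal and 0.702, 0.774 and 1.03 in the primary libraries, so that distal 2 overlapped the proximal range.

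**Figure D4:**
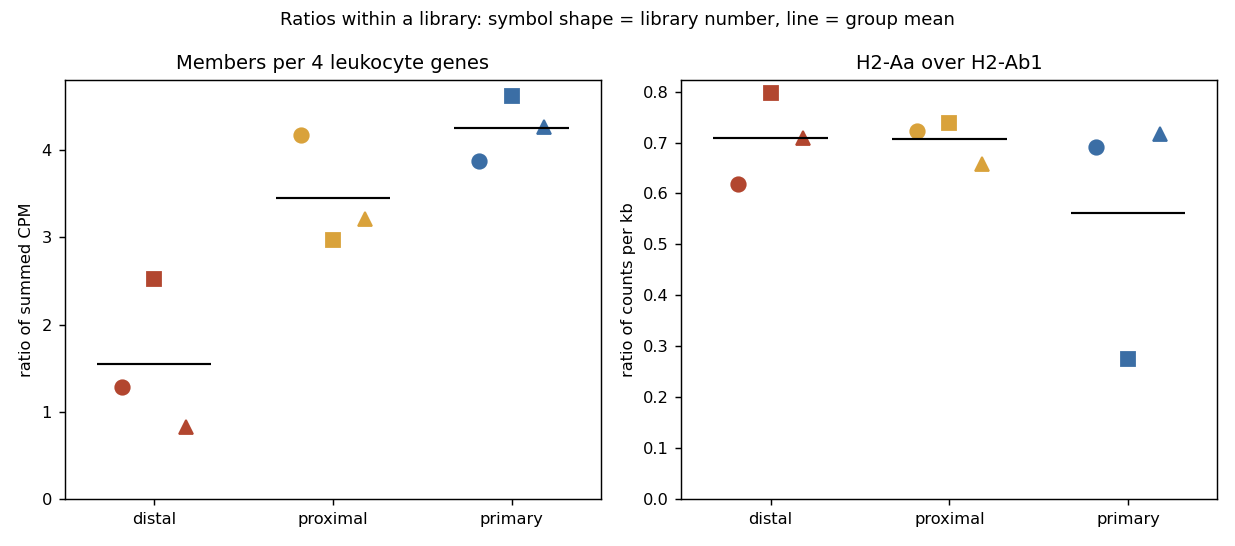
Ratios within a library for distal, proximal and primary tumours; symbols are libraries, their shape gives the library number and lines are group means. Left, the summed CPM of the 8 class II genes over that of 4 leukocyte genes is lowest in the distal libraries (0.820 to 2.52). Right, H2-Aa over H2-Ab1 per kilobase is 0.276 in primary 2 and 0.620 to 0.797 in the others.

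The transcription factors on which Ciita docks had a median near that of all genes. Of Rfx5, Rfxap, Rfxank, Nfya, Nfyb, Nfyc and Creb1, none was called by edgeR for distal against primary, with a median log2 fold change of 0.14, against -0.03 over all tested genes. At an unadjusted p below 0.05, Nfyb was higher (log2 fold change 0.60, SE 0.22) and Nfyc, chosen after its values were seen, was lower (-0.81, SE 0.28). Of all tested genes, 17.4% passed that threshold in either direction. The most abundant, the NF-Y subunit gene Nfya, stood at 75.9, 83.9 and 74.6 CPM in distal 1, 2 and 3, against 81.1, 38.9 and 53.7 CPM in primary 1, 2 and 3, so the groups overlapped.

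Interferon gamma, the main inducer of Ciita outside specialised cells, was barely detected. Ifng had 3 counts over all 9 libraries and was not tested. Its receptor chain gene Ifngr1, chosen after its values were seen, stood at 26.6, 23.1 and 30.3 CPM in distal samples, 25.8, 32.9 and 21.8 CPM in the proximal and 53.2, 64.1 and 109 CPM in the primary libraries. All 6 metastases lay below all 3 primary tumours. Its log2 fold change over primary was -1.50 in the distal and -1.49 in the proximal libraries (SE 0.29 each; edgeR adjusted p of 0.115 and 0.118). Of the 6 tested genes of this signalling list, none was called at either site. At an unadjusted p below 0.05, Ifngr1 and Ifngr2 were lower in distal metastases, as were 13.5% of all tested genes. Both were lower in proximal metastases as well, with Jak2 and Irf1, the last named after its values were seen (14.3% of all tested genes). The kinase gene Jak1, the most abundant, stood at 185 ± 14.5 CPM in distal, 186 ± 7.73 CPM in proximal and 181 ± 30.6 CPM in primary libraries (SD over 3 libraries each).

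Genes that process antigen for class II gave no call. Among the general lysosomal proteases, Ctsb stood at 755 ± 124 CPM on average over the distal libraries, against 738 ± 141 CPM over the primary ones, and Ctsl at 233 ± 44.3 CPM on average over the distal libraries, against 232 ± 73.9 CPM over the primary ones (SD over 3 libraries each). Ctss, the protease that trims the invariant chain in antigen-presenting cells, stood at 79.3 ± 35.6 CPM on average over the distal libraries, against 146 ± 72.2 CPM over the primary ones (SD over 3 libraries each), a log2 difference of -0.88 with SE 0.44 and an adjusted p of 0.324 by edgeR. Ifi30, a lysosomal thiol reductase that unfolds antigens, stood at 13.4 ± 5.37 CPM on average over the distal libraries, against 36.8 ± 18.6 CPM over the primary ones (SD over 3 libraries each), a log2 difference of -1.46 with SE 0.49 and an adjusted p of 0.213 by edgeR. Ctss and Ifi30 were chosen after their values were seen. In proximal against primary, Ctss and Ifi30 had log2 fold changes of -1.67 and -1.73 (SE 0.45 and 0.49), with adjusted p of 0.156 and 0.168 by edgeR. None of the 7 genes of this list was called in any comparison, and their median log2 fold change was 0.003 for distal and -0.12 for proximal over primary. Marchf8, a ubiquitin ligase gene, stood at 128 ± 8.35 CPM on average over the distal libraries, against 127 ± 11.3 CPM over the primary ones. Its relative Marchf1, which removes class II from the surface of antigen-presenting cells, stood at 3.64 ± 0.520 CPM and 5.70 ± 2.68 CPM in the same groups (SD, n = 3 each; edgeR adjusted p of 0.973 and 0.389).

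The costimulatory genes Cd80, Cd86 and Cd40, whose products give T cells their second signal, had negative log2 fold changes at both sites, and none was called. Cd86 stood at 1.25, 1.62 and 2.198 CPM in distal samples, 1.41, 2.27 and 1.17 CPM in the proximal and 2.06, 3.70 and 5.05 CPM in the primary libraries. Cd40 stood at 1.57, 1.499 and 1.40 CPM in distal samples, 1.04, 1.38 and 1.17 CPM in the proximal and 2.17, 1.99 and 2.44 CPM in the primary libraries. Cd80 stood at 0.450, 0.547 and 0.832 CPM in distal samples, 0.156, 0.459 and 0.0978 CPM in the proximal and 0.885, 0.936 and 1.70 CPM in the primary libraries. For Cd40 and Cd80 all metastases lay below all primary tumours, and for Cd86 the groups overlapped. Of all tested genes, 10.4% were lower without overlap in distal and 10.7% in proximal metastases. At an unadjusted p below 0.05, all 3 were lower in proximal (14.3% of all genes) and Cd86 alone in distal metastases (13.5%). The edgeR adjusted p was 0.266 for Cd86, 0.313 for Cd40 and 0.375 for Cd80 in distal against primary. In proximal against primary it was 0.242, 0.187 and 0.155.

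The genes most like the 8 in their pattern were sought among 13425 others by Pearson correlation of log2(CPM + 1) over the 9 libraries with the mean of the standardised class II values. The closest were Tnfrsf18 (r = 0.98), Lag3 (0.98), Rasal3 (0.96), Traf1 (0.95), Snhg17 (0.95), Mfng (0.95), Icosl (0.95) and Serpina3g (0.95). Lag3, which encodes a receptor on lymphocytes, stood at 1.25, 2.12 and 1.57 CPM in distal samples, 1.64, 3.08 and 1.54 CPM in the proximal and 3.19, 3.90 and 4.34 CPM in the primary libraries. Icosl, which encodes a costimulatory ligand, stood at 1.35, 2.64 and 3.86 CPM in distal samples, 1.83, 5.38 and 1.96 CPM in the proximal and 5.07, 8.50 and 13.6 CPM in the primary libraries. Ranks in place of values kept Lag3, Serpina3g and Snhg17 among the first 8. In all, 57 genes had r over 0.9, among them Cd4 and Cd8a of the T cell list.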

How the data were processed

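RNA sequencing counts of 9 libraries (3 distal, 3 proximal, 3 primary) were used, grouped by tissue label; library numbers only name libraries. The deposited files held whole-number counts, not normalized, for each Ensembl gene. Per the submitters' processing notes, the build was GRCm38.p3 and the tools were HTSeq 0.6.0, TopHat2 2.1.0, Bowtie2 2.2.6.0, FastQC 0.11.4, DESeq2 1.14.1 and R 3.2.3; how strand, annotation and reads were handled is not given in the sources used here, so counts of overlapping or near-identical genes are uncertain. Symbols were matched for 46488 of 47069 identifiers, and positions and exon lengths come from GENCODE M21 (GRCm38).

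Here, genes with enough counts (filterByExpr, minimum count 10, minimum total 15) were tested with edgeR 4.0.16's robust quasi-likelihood test in R 4.3.3 on all 9 libraries (6 residual degrees of freedom), with TMM scaling and Benjamini-Hochberg adjustment over all 18204 genes; all 8 class II genes passed. The SE is the absolute log2 fold change over the square root of F. A gene was called at an adjusted p below 0.05. The sample labels give 3 matched mice but do not state whether each library of a group is a different mouse. The p-values therefore measure the spread between these libraries, and no pair of libraries agreed within sampling noise (chi-square per gene of at least 23.0). With no mouse given per library, no animal term could be fitted. Alternatives were DESeq2 1.42.0, limma 3.58.1 (voom), other scalings and filters, and leaving out each library. The scripts recovered known changes in simulated data. That simulation gave each gene the same spread in all groups, whereas here the primary libraries spread more (median SD 0.49 against 0.14). It therefore cannot show how well the tests perform on these data. The genes named are the 8 members, called members of each list and otherwise up to 3 of its most abundant, and the 8 genes most like the members. Members and lists were chosen with earlier results of these data known. Part of the genotype and some list genes are not reported here.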

Additional observations from a re-analysis of the deposited data

How the results depend on the processing

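Of the 151 alternative values of the class II log2 fold changes for each comparison, all kept their negative sign in both comparisons with primary tumours. For distal against proximal, 4 turned positive: H2-DMb1 without distal 1 (0.03), distal 2 (0.08) or proximal 2 (0.27) and H2-Oa without proximal 2 (0.93); the cause was not tested. Leaving out 1 library gave -0.29 to 0.27 for H2-DMb1 and -1.94 to 0.93 for H2-Oa there. The number of class II genes called, 0 in each comparison, became 7 (distal against primary) and 1 (proximal against primary) with DESeq2 and 5 (distal against primary) with weighted limma-voom. Leaving out 1 library gave 0 to 5 for distal and 0 to 3 for proximal against primary, the counts above 0 being those without primary 1.

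All genes called numbered 9 in proximal against primary. They became 1486 with DESeq2, 1 with limma-voom, 3607 with weighted limma-voom, 0 with the compared groups alone, 15 with median-ratio size factors, 23 with a minimum count of 50, 26 without a filter, 22 without robust shrinkage and 0 to 5447 when leaving out 1 library. In distal against primary 16 became 1444 with DESeq2, 1 with limma-voom, 3127 with weighted limma-voom, 0 with the compared groups alone, 10 with library totals alone and 0 to 5203 when leaving out 1 library. In distal against proximal 0 became 85 with DESeq2 and 0 to 38 (38 without distal 1) when leaving out 1 library. The minimum count of 50 left 7 of the 8 genes, without H2-Oa. No paired analysis was possible because the labels do not say which libraries share a mouse. Depth limits H2-Oa most, with 3 to 73 counts a library.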

Other observations

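H2-Ea, the I-E alpha chain gene, is annotated as a pseudogene in the C57BL/6 reference, where it lacks its promoter. It had 0, 24 and 4 counts in distal 1, 2 and 3, 59, 28 and 0 counts in proximal 1, 2 and 3, and 1, 0 and 3 counts in primary 1, 2 and 3. The primary tumours, highest for H2-Eb1, held 4 counts in all, and proximal 1 held the most. It was not called in any comparison (edgeR adjusted p of 0.289 for proximal against primary). All libraries are labelled C57BL/6, and the source of the 24 to 59 counts in distal 2, proximal 1 and proximal 2 is not known. Whether the strain background or the handling of reads, which is not given, had a part in these counts was not tested.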
